A study of Mus musculus with 12 samples.

Results

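The nuclear genes of the mitochondrial respiratory chain were compared in mouse striatum between TAAR5-KO animals, which lack the receptor TAAR5 for trace amines, and their wild-type littermates (WT). The group was chosen by gene name and not by any measured change: it holds the names that begin with Nduf, Uqcr, Cox4 to Cox8 or Atp5, together with Sdha to Sdhd and Cyc1. Of 57132 features in the count table, 118 carried such a name. The 7 names ending in -ps were set aside, and 24 further rows did not reach 0.5 CPM (counts scaled to a library of 1e+06) of all counts in at least 3 libraries. This left 87 members among the 13902 features that passed the same filter. They comprised 44 genes of complex I (7 core subunits, 30 accessory subunits and 7 assembly factors), 4 of complex II, 9 of complex III, 12 of complex IV and 18 of complex V. Ndufa4 was placed with complex IV, of which its product is a subunit despite its name.

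The mice were C57Bl/6 of 10 months, and each group held 6 animals, 3 male and 3 female, of which the columns do not tell the sex. The striatum was what remained of a forebrain slice after the cortex had been removed, so it is a mixture of cells. By their labels, NK1 to NK6 are TAAR5-KO libraries and NK7 to NK12 WT libraries. Taar5 itself had 1 to 6 counts in the libraries labelled TAAR5-KO and 0 to 2 in those labelled WT. These few counts run opposite to the labels, but where in the gene they lie is not known, so they do not settle whether the labels hold. Every direction below therefore refers to the libraries as labelled. A library held 11269915 to 34824450 counts, of which 64.3% to 88.1% were ribosomal RNA. The members together held 5424 to 29663 counts per library.

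The respiratory chain sits in the inner mitochondrial membrane. Complex I (NADH dehydrogenase) and complex II (succinate dehydrogenase) pass electrons to ubiquinone, complex III hands them to cytochrome c, and complex IV (cytochrome c oxidase) passes them to oxygen, while complex V (ATP synthase) uses the proton gradient to make ATP. Most subunits are encoded in the nucleus and imported, and a smaller set of core subunits is encoded by mitochondrial DNA. Neurons of the striatum depend heavily on this machinery, and inhibitors of complex I and complex II are used to damage the basal ganglia in animal models.

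Many members have processed copies elsewhere in the genome, and a read that fits 2 places equally well can be lost in counting. Coding windows of 100 bases, the read length, were therefore searched for in GRCm39. Cox7c, a small subunit of complex IV (chr13:86192935-86195023, minus strand), and Atp5mc2, a gene for the c subunit of the ATP synthase rotor (chr15:102571299-102580787, minus strand), are shown because each of their windows had an identical copy. The Cox7c stretch is the whole coding sequence without its stop codon and occurs again at chr11:75490592-75490780, and the first 100 coding bases of Atp5mc2 occur again at chr17:5866816-5866915, both on the minus strand. Cox6a1, a small subunit of complex IV (chr5:115483701-115487040, minus strand), is shown because it is the member that passed the test below; its coding bases 38 to 217 differ from a copy at chr19:3255791-3255970 (plus strand) in 4 of 180 bases, which are in capitals.
Cox7c: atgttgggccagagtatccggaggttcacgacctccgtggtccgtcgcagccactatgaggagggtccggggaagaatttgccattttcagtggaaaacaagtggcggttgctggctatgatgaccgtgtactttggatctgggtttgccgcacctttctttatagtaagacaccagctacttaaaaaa
Atp5mc2: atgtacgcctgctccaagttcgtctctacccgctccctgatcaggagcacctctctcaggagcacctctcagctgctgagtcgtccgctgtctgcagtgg
Cox6a1: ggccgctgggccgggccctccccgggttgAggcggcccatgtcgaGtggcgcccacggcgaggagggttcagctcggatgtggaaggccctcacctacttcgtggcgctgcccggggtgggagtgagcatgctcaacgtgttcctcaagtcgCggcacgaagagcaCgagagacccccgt
Cox6a1 copy: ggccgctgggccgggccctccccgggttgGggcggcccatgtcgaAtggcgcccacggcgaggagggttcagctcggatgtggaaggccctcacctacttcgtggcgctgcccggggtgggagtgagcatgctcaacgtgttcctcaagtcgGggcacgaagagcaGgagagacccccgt

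Of the 87 members, 68 had no identical window elsewhere, and 57 had none with up to 2 mismatches. For 9 members, over 50% of the windows had an identical copy: all windows of Cox7c, Atp5mc2, Atp5mk and Ndufb4, 92.2% for Atp5mc1, 86.2% for Ndufab1, 62.4% for Atp5mg, 53.6% for Ndufa12 and 52.1% for Ndufs5. Their levels, given as CPM divided by the length of the merged exons in kb, ran from 0.112 (Atp5mg) to 3.60 (Cox7c) with a median of 0.492. The 68 members without an identical window ran from 0.249 to 16.7 with a median of 2.56. Members with some windows copied, but not over 50%, are in neither set. They include the highest levels of all, Cox6a1 at 21.9, Cox8a at 21.4 (7.28% copied) and Uqcrb at 20.8 (28.2% copied). For Uqcrb, 100% of the windows had a copy within 2 mismatches. Because of the copies, the level of the 9 members is uncertain, as is to an unknown extent that of partly copied members. Length also enters this contrast, and its part was not tested. Merged exons were 6883 bases for Ndufab1, 6443 for Atp5mg, 4908 for Atp5mc1, 2755 for Atp5mk and 1916 for Ndufb4. The median over all members was 1756, and Cox7c, Ndufs5, Ndufa12 and Atp5mc2 lay below it. Over all 87 members, the rank correlation of the level with the share of copied windows was -0.08, a description in which all members share the same 12 libraries. For Cox6a1, 2.99% of the windows had an identical copy and 34.6% one within 2 mismatches. The features annotated over this copy, Gm50432 and ENSMUSG00000121679, had 0 counts in all 12 libraries. Since they overlap each other and the gene's reads can fit both places, this does not show that the copy gave no reads.

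Copies in the nuclear genome also exist for genes of the mitochondrial genome. The first 100 coding bases of mt-Co2 (chrM:7013-7696, plus strand), a core subunit of complex IV, are found without a difference in the nuclear genome at chr1:24654547-24654646 (minus strand).
mt-Co2: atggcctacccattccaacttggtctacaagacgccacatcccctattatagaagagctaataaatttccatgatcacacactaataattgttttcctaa
The 6 mitochondrially encoded genes with 98.8% to 100% of their windows copied in this way, mt-Nd3, mt-Nd4l, mt-Co2, mt-Co3, mt-Atp6 and mt-Atp8, had 0 to 20 counts in any library. The other 7, with at most 60.8% of windows copied, had 10283 to 267759.

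**Figure D1:**
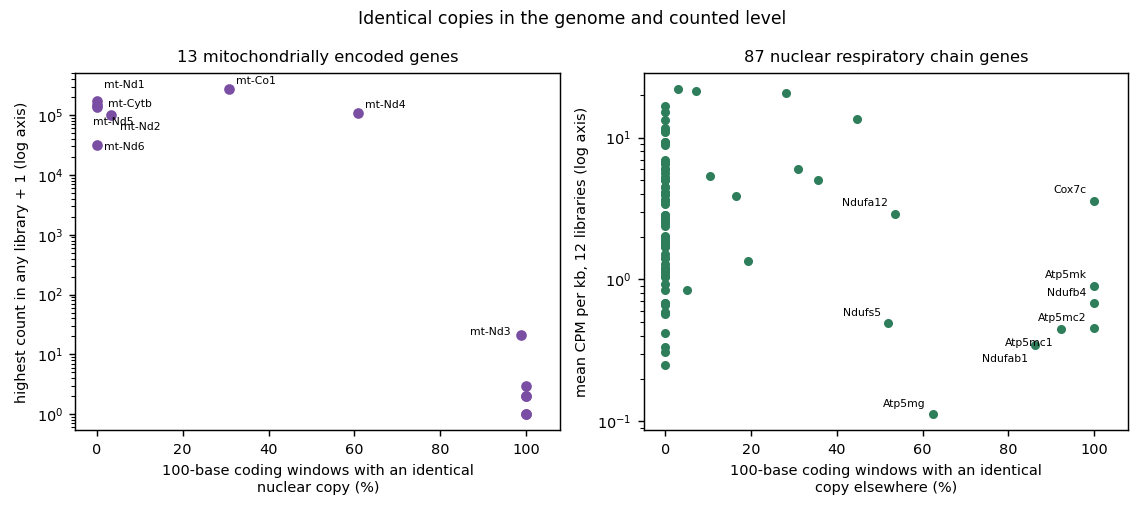
Share of 100-base coding windows with an identical copy elsewhere in GRCm39, in percent (x axis), against the highest count in any library plus 1 for the 13 mitochondrially encoded genes (left, log axis) and against the mean CPM per kb over 12 libraries for the 87 members (right, log axis). Each point is 1 gene; at left the 6 genes with 98.8% or more copied lie at 20 counts or fewer, and at right Cox7c, with all windows copied, stands at 3.60 CPM per kb and Atp5mg at 0.112.

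The levels of the members per kb spanned from 0.112 to 21.9 CPM per kb with a median of 2.62. The highest were Cox6a1 at 21.9 ± 2.58 (SD, n = 12), Cox8a at 21.4 ± 4.54 and Uqcrb at 20.8 ± 1.77, which lay within 1 SD of one another. Next came Atp5if1, which encodes the inhibitor of ATP synthase, at 16.7 ± 1.44, and Atp5f1a, the alpha subunit of the F1 head, at 15.2 ± 0.867. In complex I, the core subunit Ndufv2 stood at 6.90 ± 0.740 CPM per kb, below the accessory subunit Ndufc2 at 8.91 ± 1.68. Sdha, the flavoprotein of complex II, stood at 6.69 ± 0.429, and its partner Sdhb, the iron-sulphur subunit, at 2.68 ± 0.494. Of the assembly factors of complex I, Ndufaf1 was highest at 1.17 ± 0.177 CPM per kb, while several accessory subunits were lower still. All orders per kb depend on the annotated length of the merged exons. Ndufab1, an accessory subunit at 0.343 CPM per kb, has 6883 such bases beside a coding sequence of 468. Without the division by length it had 1.86 to 3.22 CPM over the 12 libraries, against 1.31 to 2.06 for Ndufaf1. Within F1, the beta subunit Atp5f1b was at 13.2 ± 1.02 and the gamma subunit Atp5f1c at 11.8 ± 0.835, while the epsilon subunit Atp5f1e was at 0.587 ± 0.222.

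Where a subunit has several tissue isoforms, the ubiquitous form was the one that passed the filter. Cox4i1, Cox6a1, Cox6b1, Cox7a2 and Cox8a were members, whereas 9 rows for other forms of complex IV subunits (Cox4i2, Cox6a2, Cox6b2, Cox6c2, Cox7a1, Cox7b2, Cox8b, Cox8c and Ndufa4l2) had at most 11 counts in any library. Of the isoform set of Cox7a, Cox7a2 was at 4.99 ± 0.732 CPM per kb and Cox7a2l, which encodes a factor that joins complexes III and IV, at 5.34 ± 1.099. The 3 genes that encode the same c subunit of ATP synthase with different import sequences were at 1.80 ± 0.373 (Atp5mc3), 0.454 ± 0.167 (Atp5mc2) and 0.445 ± 0.0613 (Atp5mc1). Atp5mc3 had no window with a copy, whereas the values of the other two carry the uncertainty given above. Of the remaining rows left out by the filter, 8 had names ending in -ps and a number, with at most 2 counts. The other 7 (Ndufaf8, Ndufs6b, Ndufa11b, Ndufb11b, Ndufb4b, Ndufb4c and a further row named Atp5po) had at most 15. At the edge of the filter, Ndufaf6 and Ndufs5 were just inside, with 0.802 and 0.943 CPM of all counts in the library that ranks just within the required 3, and Cox6a2 and Ndufaf8 were just outside, reaching 0.5 in 2 libraries each.

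The level of the whole chain was given for each library as the sum of CPM over members, on library sizes scaled by TMM (trimmed mean of M values). In the libraries labelled TAAR5-KO, the sum over all 87 members had its lowest value at 556.6 (NK1), its median at 592.7 and its highest value at 658.7 (NK4). In the libraries labelled WT, the lowest was 605.4 (NK7), the median 631.7 and the highest 670.3 (NK12). The groups overlapped: 4 of 6 libraries labelled TAAR5-KO lay below every WT library, while NK4 lay above 5 of the 6. The ratio of the group means was 0.946, and it was 0.686 on total counts without TMM and 0.871 as a share of counts outside ribosomal RNA, so the direction was the same on all 3 scales and the size was not. All 3 rescale the same counts, and the groups overlapped on each. On total counts the sums ran from 208.7 to 1079 CPM in the libraries labelled TAAR5-KO and from 302.7 to 1610 in those labelled WT. Outside ribosomal RNA the shares ran from 0.156% to 0.425% and from 0.239% to 0.464%. These sums are a description, without a test.

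Complex IV showed the widest gap of the sums. In the libraries labelled TAAR5-KO, the sum of its 12 genes was 102.9 CPM at the lowest (NK1), 112.4 at the median and 127.6 at the highest (NK4), and in those labelled WT it was 118.5 (NK7), 123.3 and 136.9 (NK12). All libraries labelled TAAR5-KO but NK4 were below the lowest WT library. A sum gives most weight to abundant genes, and the median log2 fold change over the 12 genes was only -0.04. Among the abundant ones, Cox6a1, Cox8a and Cox4i1 were at -0.28, -0.33 and -0.23, whereas Cox6c and Ndufa4 were at -0.03 and -0.05. For the accessory subunits of complex I, the sum ran from 87.7 (NK1) over a median of 95.1 to 110.1 (NK4) in the libraries labelled TAAR5-KO and from 99.4 over 104.3 to 112.5 in those labelled WT. The sums of complex V ran from 199.5 to 235.3 and from 216.4 to 241.3, those of complex III from 63.7 to 72.6 and from 65.9 to 72.9, and those of the core subunits of complex I from 48.1 to 57.2 and from 50.3 to 57.2. Complex II and the assembly factors of complex I lay closest together, with group means of 41.4 ± 2.41 and 42.5 ± 3.9 and of 12.4 ± 0.660 and 12.5 ± 0.711 (SD, n = 6).

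**Figure D2:**
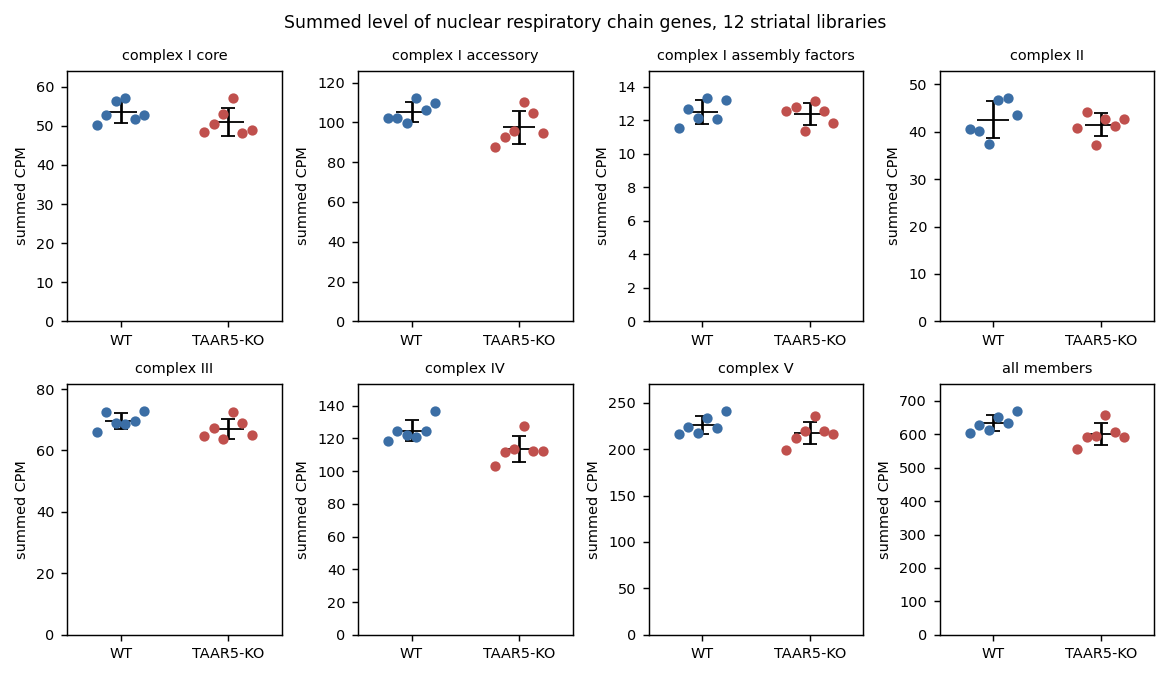
Summed CPM of each group of members in 12 libraries (y axis, from 0), by label (x axis). Points are libraries, and the bar and whiskers are the mean and SD of 6 libraries; in complex IV 5 of the 6 TAAR5-KO points lie below the lowest WT point at 118.5, and the sixth, NK4, is at 127.6.

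The comparison of the groups gene by gene answers whether any member differed between the labels by more than the spread between animals. Of the 87 members, 1 was called in the likelihood ratio test of edgeR at an adjusted p under 0.1, where 1.65% of all features tested were called (229 of 13902, with 0.691% lower and 0.957% higher). This was Cox6a1, which was lower in the libraries labelled TAAR5-KO. Its level was 12.5 CPM at the lowest (NK5), 14.1 at the median and 14.9 at the highest (NK3) in these libraries, and 15.7 (NK7), 16.8 and 18.1 (NK11) in those labelled WT. The groups did not overlap, which was so for 1.01% of all features tested, and Cox6a1 was the one member in which they did not. The log2 fold change was -0.28 (SE 0.0848, 95% interval from -0.45 to -0.11), a ratio of 0.824, with an adjusted p of 0.0761 by the likelihood ratio test and of 0.0502 by DESeq2. The quasi-likelihood test of edgeR gave Cox6a1 an adjusted p of 0.138, and it called 0 members, with 9 at an unadjusted p under 0.05, and 0.453% of all features. DESeq2 called Cox6a1 and 1.27% of all features. It gave an adjusted p to 58 of the 87 members and to 6893 features, of which 2.57% were called, and the other 29 members had none. The call of Cox6a1 was also lost without any one of NK1, NK2, NK3, NK5, NK6, NK10, NK11 and NK12, with log2 fold changes from -0.24 to -0.30 over the 12 fits that leave out 1 library.

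Cox6a1 (ENSMUSG00000041697.10) had the highest exonic GC content of the 87 members, at 62.8%, and the libraries differed in how their counts depended on GC. The rank correlation of a gene's deviation in a library with its GC content was between -0.35 (NK1) and -0.00 (NK6) in the libraries labelled TAAR5-KO. In those labelled WT, it was between -0.10 (NK9) and 0.44 (NK12). With this trend removed from each library, the log2 fold change of Cox6a1 was -0.16 with an adjusted p of 0.548 by the likelihood ratio test, and 0 members were called.

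An unadjusted p under 0.05 was reached by 10 members, each lower in the libraries labelled TAAR5-KO. This is 11.5% of the members, and 11.9% of all features tested reached it in either direction, with 5.51% on the lower side and 6.39% on the higher side. Besides Cox6a1, these were Cox8a and Cox4i1 of complex IV, Ndufs7, Ndufs8, Ndufa8, Ndufb9 and Ndufs5 of complex I, and Uqcrc1 and Uqcrq of complex III. Their adjusted p values by the likelihood ratio test ran from 0.260 to 0.396 without Cox6a1, so none of these 9 passed. The values of the leading ones are given by role.

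Cox8a, a small subunit of complex IV, had 8.81 CPM at the lowest (NK1), 12.1 at the median and 13.7 at the highest (NK6) in the libraries labelled TAAR5-KO. In those labelled WT, it had 9.41 (NK9), 15.6 and 17.8 (NK12). Of the WT libraries, 5 lay above every library labelled TAAR5-KO and NK9 lay among the low ones. It differed by -0.33 on the log2 scale (SE 0.135), with an adjusted p of 0.260 by the likelihood ratio test. With 1 library left out, the adjusted p by this test ran from 0.0256 (without NK9) to 0.526 (without NK1). Cox8a was called in 1 of these 12 fits, and with the GC trend removed its adjusted p was 0.574. Cox4i1, a large nuclear subunit of complex IV, had 13.8, 14.7 and 18.4 CPM at the lowest, median and highest in the libraries labelled TAAR5-KO and 15.9, 18.3 and 21.6 in those labelled WT. On the log2 scale this was -0.23 (SE 0.101), and NK3 and NK4 were the libraries labelled TAAR5-KO within the WT range. Cox6b1, which helps to bind cytochrome c, was at -0.23 (SE 0.131) and reached no threshold. The other 8 genes of complex IV had log2 fold changes from -0.11 (Cox5b) to 0.14 (Cox5a), among them Ndufa4 at -0.05 (SE 0.0936), Cox7a2 at -0.02 (SE 0.133) and Cox7a2l at -0.01 (SE 0.157).

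In complex I, Ndufs7 and Ndufs8 encode core subunits that hold iron-sulphur clusters near the site of ubiquinone. Ndufs7 had 2.43, 2.77 and 3.13 CPM at the lowest, median and highest in the libraries labelled TAAR5-KO and 2.77, 3.61 and 3.88 in those labelled WT, and 5 of the 6 WT libraries were above every library labelled TAAR5-KO. The fitted difference was -0.30 on the log2 scale (SE 0.134), with an adjusted p of 0.321 by the likelihood ratio test. Ndufs8 had 2.14, 2.97 and 4.46 CPM against 3.14, 3.83 and 4.92, and all libraries labelled TAAR5-KO but NK4 lay below the WT range. Its log2 fold change was -0.33 (SE 0.152), with an adjusted p of 0.353 by the likelihood ratio test. With 1 library left out, the log2 fold change ran from -0.45 (without NK4) to -0.26 (without NK1). The adjusted p by this test then ran from 0.0578 (without NK4) to 0.632 (without NK1), and Ndufs8 was called in 1 of these 12 fits. The accessory subunit Ndufb9 of the membrane arm had 3.40, 3.62 and 4.15 CPM against 3.97, 4.40 and 4.84, with a log2 fold change of -0.26 (SE 0.116), and 5 of the 6 libraries labelled TAAR5-KO lay below the WT range. Ndufb9 shares 19.5% of its exonic bases with another feature on the same strand, so its count is less certain. The accessory subunit Ndufa8 was at -0.31 (SE 0.143). Ndufs5 had the largest fitted difference of any member, -0.70 (SE 0.341), on 1 to 21 counts per library and with copied windows as given above.

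Ndufv2, the core subunit of complex I with the highest level per kb, was at 0.00 (SE 0.0996). The most abundant accessory subunits were also close to 0, Ndufc2 at -0.05 (SE 0.146) and Ndufa1 at -0.07 (SE 0.135). Among the assembly factors, Ndufaf3 was at -0.25 (SE 0.196) and between -0.39 (without NK5) and -0.16 (without NK6) with 1 library left out, Ndufaf7, a methyltransferase, at -0.12 (SE 0.168), Ndufaf1 at 0.10 (SE 0.161) and Ndufaf4 at 0.03 (SE 0.111). None of these values reached an unadjusted p under 0.05.

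In complex II, no member reached an unadjusted p under 0.05. Sdha had 24.4, 27.5 and 29.0 CPM at the lowest, median and highest in the libraries labelled TAAR5-KO and 25.6, 27.7 and 30.6 in those labelled WT, so the groups overlapped nearly throughout. Its log2 fold change was -0.03 with a 95% interval from -0.19 to 0.13. Sdhb was at -0.06 (SE 0.142) and the membrane anchor Sdhd at -0.10 (SE 0.173). In complex III, Uqcrc1, one of the large core proteins, had 9.11, 9.58 and 10.5 CPM against 9.36, 11.04 and 12.5, a log2 fold change of -0.20 (SE 0.0999). The small subunit Uqcrq had 2.58, 2.84 and 3.903 CPM against 3.39, 3.69 and 4.21, a log2 fold change of -0.28 (SE 0.129), and NK4 and NK5 were the libraries labelled TAAR5-KO within the WT range. The more abundant Uqcrb and Uqcrh were at 0.06 (SE 0.0883) and -0.03 (SE 0.1003).

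In complex V, the largest group of the summed level, no member reached an unadjusted p under 0.05. Atp5f1a had 43.8, 47.2 and 49.6 CPM at the lowest, median and highest in the libraries labelled TAAR5-KO and 45.0, 48.5 and 51.7 in those labelled WT, and its log2 fold change was -0.05 with a 95% interval from -0.21 to 0.11. All 5 F1 subunits had a log2 fold change below 0, from -0.05 (Atp5f1a) to -0.42 (Atp5f1e, SE 0.279), though Atp5f1a was above 0 with the GC trend removed. Without NK11, Atp5f1e was at -0.11. The 3 genes of the c subunit were also below 0, with Atp5mc3 at -0.26 (SE 0.149, and -0.17 without NK1), though Atp5mc2 was above 0 with the GC trend removed and Atp5mc1 with the length trend removed. The inhibitor Atp5if1 was at 0.05 (SE 0.0890). Reads of Atp5if1 cannot all be assigned with certainty, since 69.6% of its exonic bases are shared with a feature on the opposite strand and the strand setting of the counting is not stated.

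**Figure D3:**
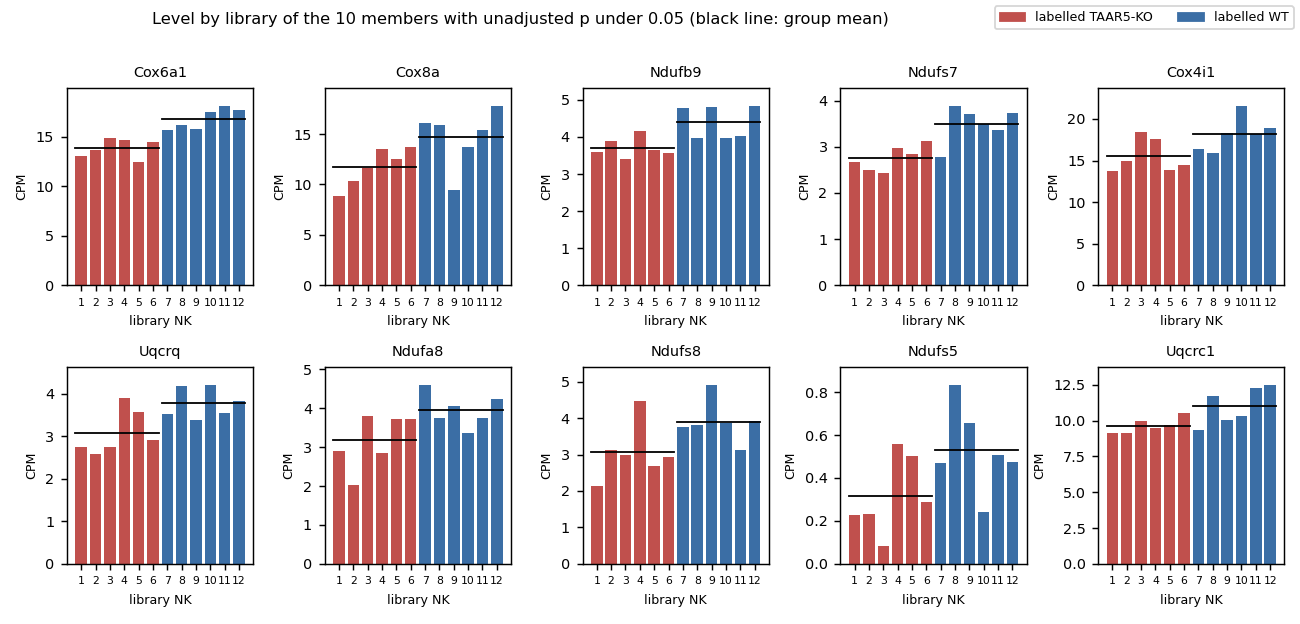
CPM on TMM library sizes (y axis, from 0) of the 10 members with an unadjusted p under 0.05 in each of 12 libraries (x axis, library number), with the group means as black lines. The highest Cox6a1 value labelled TAAR5-KO is 14.9 and the lowest WT value 15.7, while the other 9 members overlap between the groups, Cox8a through NK9 at 9.41.

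As a list, 65 of the 87 members (74.7%) had a log2 fold change below 0, as had 51.1% of all features tested. The median was -0.07 over the members and -0.01 over all features tested, against a median SE of 0.136 for a single member. By group, the median was -0.10 for the core and -0.10 for the accessory subunits of complex I, 0.03 for the assembly factors, -0.05 for complex II, -0.09 for complex III, -0.04 for complex IV and -0.06 for complex V. The fold changes of 86 members lay within 0.5 of 0 on the log2 scale. With library size as the only scaling, all features shifted, to a median of -0.49, the members stood at -0.54 and the assembly factors at -0.47. With no filter beyond 1 count, the median of all features was -0.11 and that of the members -0.09, so the members then lay on the other side of the median of all features.

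**Figure D4:**
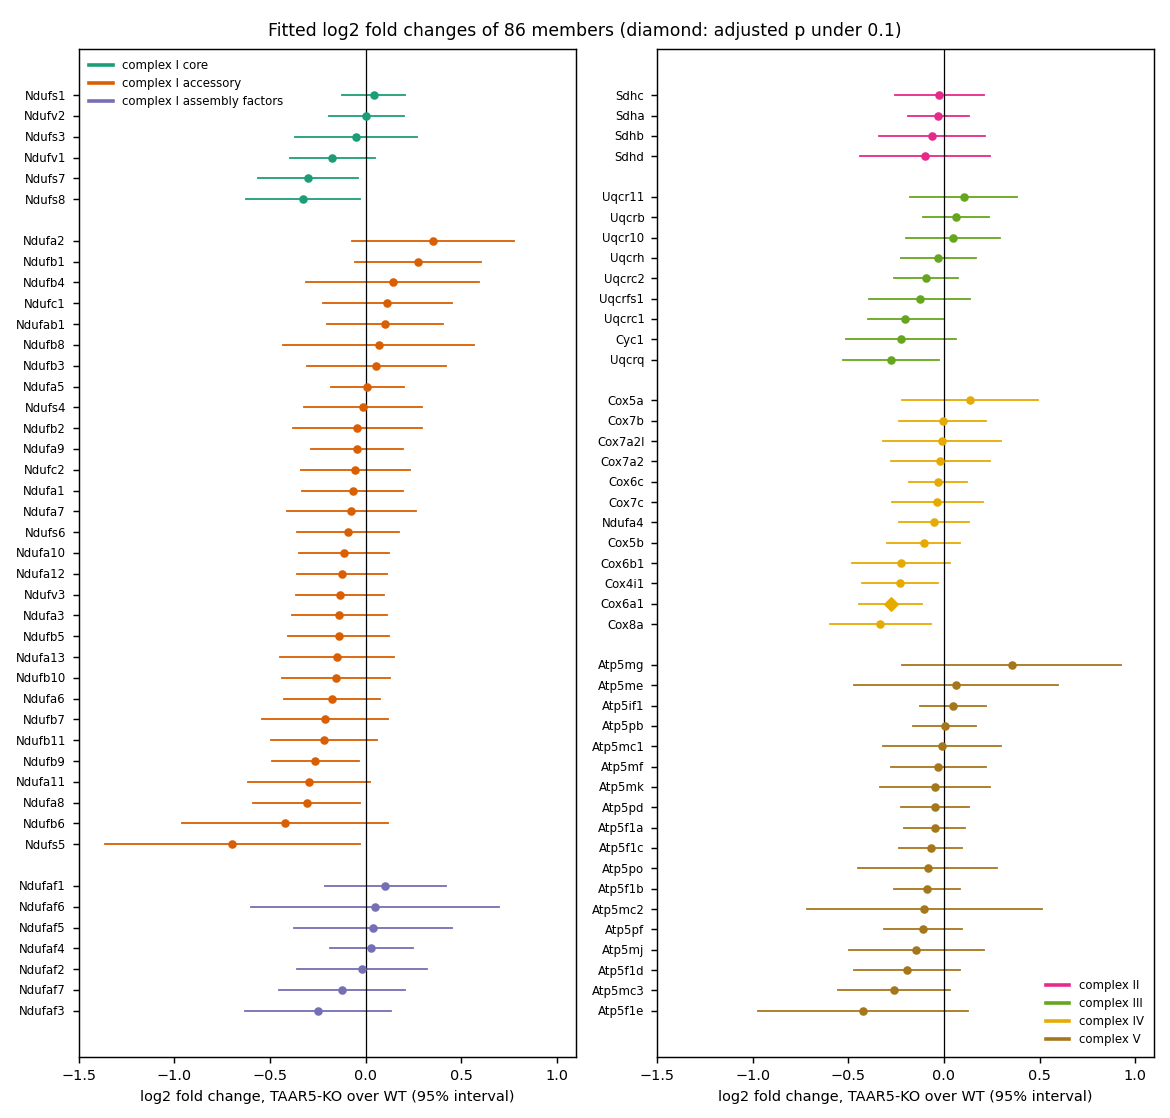
Fitted log2 fold change of TAAR5-KO over WT with its 95% interval (x axis) for 86 members (y axis), coloured by group; the diamond marks an adjusted p under 0.1. Cox6a1 at -0.28 is the one diamond, and the widest interval on the left is that of Ndufs5 at -0.70.

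The fold changes of members followed the GC content of their exons. The 44 members at or above the median GC content of the list (49.9%) had a median log2 fold change of -0.15 and held all 10 with an unadjusted p under 0.05, whereas the 43 below it had a median of -0.03. All features tested on the same 2 sides of 49.9% had medians of -0.09 and 0.05. The rank correlation of fold change with GC content was -0.52 over the 87 members and -0.40 over the 13902 features, where all points share the same libraries and so the same trends. With the GC trend of each library removed, this correlation was -0.10 over the members, their median log2 fold change was -0.05, and 63 of 87 were below 0. An unadjusted p under 0.05 was then reached by 3 members, Cox6a1 and Atp5mc3 below 0 and Ndufb1 above it. With the trend on gene length removed in its place, the median of the members was -0.04 and 5 reached an unadjusted p under 0.05, all below 0. With the GC trend removed, the 10 members named for their p as fitted were all still below 0. Cox6a1 was at -0.16, Cox8a at -0.21, Cox4i1 at -0.13, Ndufs8 at -0.21, Ndufs7 at -0.19, Ndufb9 at -0.16 and Uqcrc1 at -0.10. Each of these was over 1.5 times closer to 0 than as fitted. Ndufa8 at -0.21, Uqcrq at -0.24 and Ndufs5 at -0.63 moved by a smaller factor. Whether the labels themselves moved the GC-rich members cannot be told apart from the GC trends of these libraries.

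**Figure D5:**
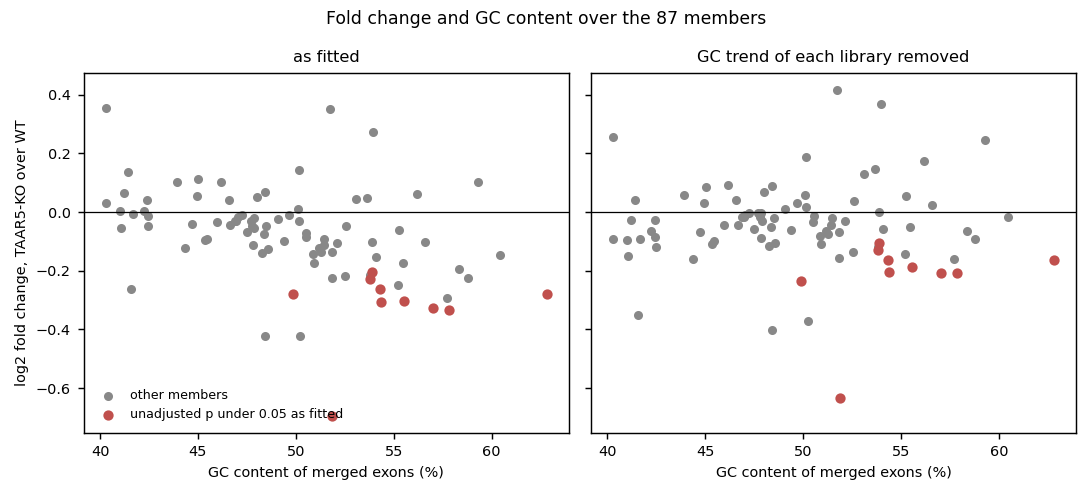
Log2 fold change of TAAR5-KO over WT (y axis) against the GC content of the merged exons in percent (x axis) for the 87 members, as fitted (left) and with the GC trend of each library removed (right); red points are the 10 members with an unadjusted p under 0.05 as fitted. At left the points slope downward with GC (rank correlation -0.52), at right they do so less (-0.10), and Cox6a1 at 62.8% moves from -0.28 to -0.16.

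Genes that work with the chain were looked at in the same fit. Of the 14 genes of the citric acid cycle, 0 were called by the likelihood ratio test, which called 1.65% of all features tested, and 10 were below 0. An unadjusted p under 0.05 was reached by 2 of the 14 (14.3%), near the 11.9% of all features tested. These were Cs, the citrate synthase, at -0.22 (SE 0.0979) and Mdh2, the mitochondrial malate dehydrogenase, at -0.21 (SE 0.1005). Of 7 genes for cytochrome c, nucleotide and phosphate carriers and porins, 0 were called, 0 reached an unadjusted p under 0.05 and all 7 were below 0, from -0.10 to -0.01. Of 44 tested assembly factors of complexes I to V outside the member names, 0 were called. An unadjusted p under 0.05 was reached by 3 (6.82%, below the share of all features), of which 2 were lower and 1 was higher. Of 16 tested regulators of mitochondrial genes, which include Nrf1, Gabpa, Yy1 and Ppargc1a, 0 were called, 0 reached an unadjusted p under 0.05 and 10 were above 0, with a median of 0.06. The quasi-likelihood test also called 0 in each of these lists. The 7 mitochondrially encoded genes that passed the filter were all below 0 with a median of -0.10, and 0 were called or reached an unadjusted p under 0.05. Cytosolic ribosomal proteins, a list of other short and abundant transcripts, had a median of -0.07 over 91 tested, 3 called by the likelihood ratio test, all lower, and 20 with an unadjusted p under 0.05, of which 19 were lower.

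Markers of cell types were looked at beside the members, and since the tissue is a mixture, fewer cells of a type and less RNA per cell cannot be told apart. The 9 markers of striatal spiny neurons were all detected and all had a log2 fold change above 0, with a median of 0.32, 0 called and 4 at an unadjusted p under 0.05; their summed level was 332.9 to 430.7 CPM in the libraries labelled TAAR5-KO and 195.5 to 369.2 in those labelled WT. The 7 astrocyte markers were all below 0, with a median of -0.40, 1 called, 5 at an unadjusted p under 0.05 and a summed level of 975.3 to 1193 against 1085 to 1277 CPM. The 6 microglia markers were all below 0, with a median of -0.36, 2 called, 4 at an unadjusted p under 0.05 and 24.6 to 34.999 against 34.3 to 43.4 CPM. The 6 markers of mature oligodendrocytes had a median of -0.20, 0 called, 2 at an unadjusted p under 0.05 and 572.1 to 699.7 against 608.7 to 780.2 CPM. The 6 pan-neuronal markers had a median of -0.09, 0 called and 1 at an unadjusted p under 0.05. Their summed level went the other way by its median, 482.8 to 816.2 CPM (median 664.3) against 532.9 to 758.5 (median 578.9). The quasi-likelihood test called 0 markers in each of these 5 lists, and the calls given are by the likelihood ratio test. That test called 1.65% of all features tested, and 11.9% reached an unadjusted p under 0.05. Markers of oligodendrocyte precursors, mural cells and parvalbumin interneurons had medians of -0.17, -0.24 and -0.08. Those of endothelium, ependyma and cortical pyramidal neurons had medians of 0.04, 0.26 and 0.13, and in each of these further lists 0 were called. Markers of other tissues were looked at in the same way. Of the pituitary markers, 2 of 3 were tested, with a median of -3.64, 2 at an unadjusted p under 0.05, 1 called and a summed level of 0 to 5.16 CPM in the libraries labelled TAAR5-KO against 0.0835 to 52.3. The 4 blood markers had a median of 0.71, 3 at an unadjusted p under 0.05, 1 called and 6.21 to 16.2 against 5.03 to 13.1 CPM. The 5 choroid plexus markers had a median of -0.59, 0 called and 1.38 to 458.5 against 2.35 to 279.0 CPM. The quasi-likelihood test called 0 in these 3 lists too. The part of all these lists in the values of the respiratory chain genes was not tested.

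Promoters of the members were read for the motifs of factors known to act on nuclear respiratory genes. The promoter set of RefSeq (GRCm38.p6, 250 bases before to 50 after each annotated start) held 71 of the 87 members, 58 by symbol and 13 by an older symbol. It had no entry matched to, among others, Ndufa2, Ndufb9, Ndufaf6, Ndufs1, Sdhc, Uqcrb, Uqcrc2, Uqcrq, Cyc1, Cox4i1, Cox6c, Atp5if1, Atp5f1a, Atp5mj and Atp5mk. One form each of the NRF1, GABP and YY1 motifs was searched on both strands, with letters chosen after results were known. The letters are those in capitals below: NRF1 in the first 5 stretches, where it reads the same on both strands, GABP in Uqcrh, read on the opposite strand (CCGGAAGTG on its own strand), and YY1 in Ndufs7. Stretches of 7 members are shown because they hold such a match: Cox6a1 (chr5:115348959-115349208, minus strand), Atp5mc2 (chr15:102671048-102671127, minus strand), Atp5me (chr5:108434400-108434479, minus strand), Ndufa11 (chr17:56717672-56717751, plus strand), Ndufaf4 (chr4:24897940-24898019, plus strand), Uqcrh (chr4:116075071-116075150, minus strand) and, just after the start, Ndufs7 (chr10:80249464-80249493, plus strand).
Cox6a1 promoter: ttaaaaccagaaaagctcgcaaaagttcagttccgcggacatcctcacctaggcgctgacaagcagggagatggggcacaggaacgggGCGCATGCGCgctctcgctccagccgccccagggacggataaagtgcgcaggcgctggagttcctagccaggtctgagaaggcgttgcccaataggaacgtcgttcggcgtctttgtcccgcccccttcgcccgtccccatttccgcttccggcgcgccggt
Atp5mc2 promoter: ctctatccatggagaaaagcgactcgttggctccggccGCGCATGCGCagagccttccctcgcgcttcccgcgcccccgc
Atp5me promoter: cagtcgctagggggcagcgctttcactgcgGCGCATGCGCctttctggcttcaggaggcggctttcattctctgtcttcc
Ndufa11 promoter: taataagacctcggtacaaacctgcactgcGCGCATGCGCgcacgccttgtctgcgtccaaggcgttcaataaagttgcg
Ndufaf4 promoter: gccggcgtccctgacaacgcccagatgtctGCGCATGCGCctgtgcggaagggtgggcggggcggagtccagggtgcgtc
Uqcrh promoter: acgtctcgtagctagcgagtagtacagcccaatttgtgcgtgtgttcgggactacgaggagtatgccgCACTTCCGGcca
Ndufs7 stretch: gccgaggccAAGATGGCGGCgctggcgggt

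The NRF1 motif stood in 7 of the 71 member promoters (9.86%), those of Cox6a1, Atp5mc2, Atp5me, Ndufa11, Ndufaf4, Ndufaf5 and Uqcrc1, in 2.25% of the 10301 tested genes with a promoter and in 1.07% of all 27025 genes of the set. The YY1 motif stood in 4 (5.63%), those of Ndufs4, Ndufs6, Ndufs7 and Ndufa9, in 1.74% of tested genes and in 0.755% of all. All 4 YY1 matches were on the strand of the gene and between 24 and 45 bases after the start, counted as 0. The GABP motif stood in 2 (2.82%), those of Ndufs3 and Uqcrh, in 4.63% of tested genes and in 2.25% of all. No promoter of a member held more than 1 kind of motif, and 58 held none. With 1 mismatch allowed, the shares were 35.2% of members and 14.4% of tested genes for NRF1, 14.1% and 5.32% for YY1 and 23.9% and 22.4% for GABP. These are matches of letters in a window and no measure of binding. Of the 10 members with an unadjusted p under 0.05, 7 had a promoter to search, and 3 of these (Cox6a1, Uqcrc1 and Ndufs7) held an exact match, beside 13 of all 71 members searched.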

How the data were processed

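Counts were analysed for 12 striatal libraries, 6 labelled TAAR5-KO and 6 labelled WT. The authors depleted ribosomal RNA, made directional libraries, trimmed single-end reads of 100 bases with cutadapt 4.1, aligned them with STAR 2.7.11b to GRCm39 with GENCODE M35 and counted with featureCounts 2.0.6. What the authors deposited are raw, unpooled counts of reads for each gene, with the length of merged exons. Strand setting and handling of multi-mapping reads are not given in the sources used here. Another 12 columns, of libraries outside this comparison, were left unused. Columns carry no animal, sex or pair, though the methods describe separate animals. Pairs of libraries within a group differed by more than counting error (chi-square per degree of freedom of 6.78 or more).

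Features with a CPM of at least 0.5 on total counts in at least 3 libraries were tested with edgeR 4.0.16 (R 4.3.3), with TMM factors, estimateDisp, glmFit and glmLRT over all 13902 features, with calls at an adjusted p (Benjamini-Hochberg) under 0.1. The CPM rule, the likelihood ratio test, the adjustment and the threshold follow the study's methods, which name neither TMM nor a dispersion estimate. The study reports fewer features tested and fewer called. Most of its calls are lower in TAAR5-KO, whereas more of the calls here were higher. SE came from the same fit. The quasi-likelihood test and DESeq2 1.42.0 were run beside it, and a missing adjusted p of DESeq2 stayed missing. The fits were tested on simulated counts. Counts outside ribosomal RNA (1819907 to 6399188) set the precision, and 3 counts were 0.0678 to 0.361 CPM. GC content came from GRCm39, where the exons of 57131 of 57132 features had the deposited length, and GC and length trends were taken out of each library with loess (span 0.5). Copies were sought with coding windows of 100 bases (step 1) of GENCODE M39 canonical transcripts, identical or within 2 mismatches.

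The named members are those called by any of the 3 tests, the 2 with the highest level per kb and the 2 with the smallest p in each group, the tissue isoform sets, and members whose groups do not overlap. The members, the pathway and marker lists, the motif letters, the copy search, this rule and the tests were chosen with earlier results of these data known. Ndufs5 and a few further members were named after their values were seen. The ribosomal RNA share as a covariate was added after the data were seen. Marker genes of cell types are not reported one by one. The values of 1 member that this rule names are not reported here.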

Additional observations from a re-analysis of the deposited data

Results flagged for a closer look

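Summed levels of the 8 groups of members and the CPM of 32 members were looked at for a library that stands apart from the other 5 of its label, in 80 sets of 6 libraries, and 3 did so. Chance alone flags about 1 in 20 such sets. Atp5mc3, a gene for the c subunit of ATP synthase, had 3.17 CPM in NK9 and 4.25 or more in the other libraries labelled WT. Ndufc2, an accessory subunit of complex I, had 4.46 CPM in NK10 and 6.87 or more in the other libraries labelled WT. The summed level of complex IV was 136.9 CPM in NK12 and 124.8 or less in the other libraries labelled WT.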

How the results depend on the processing

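The number of members called was 1 in the fit reported, with RLE size factors, with filterByExpr, with the CPM filter on TMM library sizes, without ribosomal RNA and mitochondrially encoded features, and in DESeq2. In each of these it was Cox6a1. It was 0 with the quasi-likelihood test, with library size as the only scaling, with no filter beyond 1 count, with the length trend removed, with the GC trend removed, at an adjusted p under 0.05 and with a covariate for the ribosomal RNA share (added after seeing the data), and the cause was not tested. Leaving out 1 library gave 0 to 2 calls, with 2 without NK4 (Cox6a1 and Ndufs8) and 2 without NK9 (Cox6a1 and Cox8a). Of all features tested, 2.99% were called without NK4 and 2.37% without NK9, against 1.65% in the fit reported. Over the fits that leave out 1 library, the adjusted p of Cox6a1 by the likelihood ratio test ran from 0.0533 to 0.253. The log2 fold change of Cox6a1 was below 0 in all 24 fits. All features called in the comparison numbered 229 in the fit reported, 63 with the quasi-likelihood test, 177 in DESeq2, 7 with library size as the only scaling, 93 with no filter beyond 1 count, 86 with the GC trend removed, 98 with that covariate and 85 (without NK11) to 414 (without NK4) with 1 library left out. The median log2 fold change of the members was -0.54 with library size as the only scaling, where all features shifted, ran from -0.11 to -0.05 with 1 library left out and from -0.09 to -0.04 in the other settings. The ratio of summed levels was 0.686 on total counts. Of called higher and lower features, 133 and 96 in the fit reported became 0 and 7 with library size as the only scaling, 132 and 63 with the length trend removed and 51 and 47 with that covariate. Members close to 0, none of them called, changed sign in some settings. With library size as the only scaling, where all features shifted, Ndufaf1 was at -0.35, Ndufaf4 at -0.45, Ndufv2 at -0.41, Uqcrb at -0.37 and Atp5if1 at -0.46. With the GC trend removed, Ndufaf4 was at -0.093, Ndufv2 at -0.064, Sdhb at 0.055, Uqcrb at -0.029, Cox7a2l at 0.032, Atp5f1a at 0.037 and Atp5mc2 at 0.025. With the length trend removed, Uqcrh was at 0.024, Cox7a2l at 0.029, Cox7a2 at 0.028 and Atp5mc1 at 0.013. With the covariate, Ndufv2 was at -0.035, Cox7a2l at 0.056 and Cox7a2 at 0.025. With no filter beyond 1 count, Ndufv2 was at -0.019. With 1 library left out, the range of the log2 fold change crossed 0 for Ndufc2 (-0.12 to 0.029), Ndufaf4 (-0.0011 to 0.072), Ndufv2 (-0.025 to 0.070), Sdha (-0.048 to 0.0061), Sdhb (-0.14 to 0.0035), Uqcrh (-0.058 to 0.023), Cox7a2l (-0.11 to 0.080), Cox7a2 (-0.096 to 0.065), Atp5mc2 (-0.22 to 0.096) and Atp5mc1 (-0.095 to 0.076). No paired analysis was possible because the columns carry no animal numbers. Low counts limit Ndufs5, Ndufaf6, Ndufaf5, Ndufb6, Ndufb8, Atp5mg and Atp5mc2, since a library held as few as 1 to 5 counts of each.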
